A study of Mus musculus with 4 samples.

Results

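The metallothioneins and the zinc transport genes were followed across the mouse brain, from single-nucleus RNA sequencing of WT and Csf1r+/- animals. The 10 genes were taken by symbol from the 31053 gene rows, which are the same in all 4 libraries. They are 3 metallothioneins (Mt1, Mt2 and Mt3), the metal-sensing transcription factor Mtf1, 3 zinc exporters of the Slc30a family (Slc30a1, Slc30a3 and Slc30a9) and 3 zinc importers of the Slc39a family (Slc39a10, Slc39a11 and Slc39a12). The 4 libraries came from whole brains of untreated female C57/BL6 mice aged 2 months, with 2 mice of each genotype and 1 library from each mouse. Csf1r+/- mice carry 1 inactivated copy, in every cell of the body, of the gene for the colony stimulating factor-1 receptor, on which microglia depend for survival. WT animals have both copies. The nuclei were depleted of myelin debris with magnetic beads before loading, and no cell type was sorted.

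Metallothioneins are small, cysteine-rich proteins that bind zinc and copper, buffer their free concentrations and scavenge reactive oxygen. Zinc-loaded Mtf1 enters the nucleus and binds short metal response elements in the promoters of Mt1, Mt2 and Slc30a1, so that a rise in free zinc raises the proteins that bind it or pump it out. Mt3 is the brain-enriched metallothionein and is known for its weak response to metals. Slc30a proteins move zinc out of the cytosol, either out of the cell or into organelles and vesicles, and Slc39a proteins bring it in. In the forebrain, a pool of zinc is packed by Slc30a3 into the synaptic vesicles of glutamatergic neurons.

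The 3 metallothionein genes lie side by side on the forward strand of chromosome 8 (GRCm38, GENCODE M21 annotation). Mt3 spans chr8:94152607-94154146, Mt2 spans chr8:94172664-94173568 and Mt1 spans chr8:94179082-94180327, so that 18517 bases separate Mt3 from Mt2 and 5513 bases separate Mt2 from Mt1. They are short, and 100% of the Mt1 gene, 65.0% of Mt2 and 69.2% of Mt3 was annotated as exon in some transcript. The transporters are long genes with little exonic sequence, down to 0.829% of the 405227 bases of Slc39a11 (chr11:113244853-113650079, reverse strand), and much of their nuclear RNA can be intronic. Slc30a1 (chr1:191906767-191913247, forward strand) was the exception, with 80.9% exonic.

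The promoters of the 3 metallothioneins and of Slc30a1 are shown because the metallothioneins moved together between libraries and Slc30a1, which shares the regulator Mtf1 with Mt1 and Mt2, did not move with them. Each line gives the 250 bases before the RefSeq start site (GRCm38.p6), 5′ to 3′ on the strand of the gene, with capitals marking the metal response element core TGCACNC or TGCGCNC on either strand.
Mt1, chr8:94178839-94179088: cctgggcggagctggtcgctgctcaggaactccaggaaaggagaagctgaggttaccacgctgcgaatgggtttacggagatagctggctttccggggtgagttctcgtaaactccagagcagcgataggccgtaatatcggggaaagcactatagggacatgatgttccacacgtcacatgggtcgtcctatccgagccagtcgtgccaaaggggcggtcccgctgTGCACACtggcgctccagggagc
Mt2, chr8:94172368-94172617: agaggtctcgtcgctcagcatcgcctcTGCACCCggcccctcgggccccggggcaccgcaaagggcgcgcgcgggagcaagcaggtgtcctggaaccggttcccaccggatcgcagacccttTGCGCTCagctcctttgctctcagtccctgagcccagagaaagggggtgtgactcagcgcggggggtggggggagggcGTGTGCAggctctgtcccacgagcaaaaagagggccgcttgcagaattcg
Mt3, chr8:94152357-94152606: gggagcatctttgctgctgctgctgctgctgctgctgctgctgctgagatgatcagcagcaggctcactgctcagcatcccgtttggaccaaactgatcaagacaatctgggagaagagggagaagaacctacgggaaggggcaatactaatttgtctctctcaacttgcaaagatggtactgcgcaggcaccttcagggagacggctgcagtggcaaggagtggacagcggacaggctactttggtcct
Slc30a1, chr1:191906531-191906780: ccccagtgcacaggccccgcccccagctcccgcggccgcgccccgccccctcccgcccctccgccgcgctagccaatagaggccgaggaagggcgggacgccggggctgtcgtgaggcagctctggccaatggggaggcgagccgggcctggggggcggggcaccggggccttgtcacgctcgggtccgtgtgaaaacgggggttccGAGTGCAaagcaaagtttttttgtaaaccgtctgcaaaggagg

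The Mt2 window held 3 matches, the Mt1 and Slc30a1 windows 1 each and the Mt3 window 0. At least 1 match was found in 21.4% of the 32851 promoters of the same length, and at least 3 in 1.26%. The RefSeq start of Mt1 lies among its GENCODE starts, close to the most upstream one. Between the first and the last GENCODE start of the gene, over 159 bases not shown, the core occurred 4 times. The same stretch had 3 matches over 196 bases in Mt2 and 3 over 139 bases in Mt3. Among the other members, 1 of the 2 Slc30a3 promoters and both Slc39a11 promoters held 1 match, and those of Mtf1, Slc30a9, Slc39a10 and Slc39a12 held 0. A match is a stretch of letters, and no binding was measured.

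After filtering on depth and mitochondrial share, 16114, 15247, 9589 and 11182 nuclei remained in WT replicate 1, WT replicate 2, Csf1r+/- replicate 1 and Csf1r+/- replicate 2, with medians of 5490, 4636, 7454 and 6656 UMIs, each UMI being 1 counted molecule. WT replicate 2 stood apart. Mitochondrially encoded transcripts made up 0.629% of its UMIs against 0.170% to 0.286% in the other 3 libraries, and the metallothionein calls below are therefore also given without it. Pairs of libraries shared 35 to 75 barcodes. In microglia, Csf1r was at 729 and 683 CPM in WT and at 506 and 497 CPM in Csf1r+/- (log2 fold change -0.54, SE 0.19, adjusted p = 0.22, edgeR quasi-likelihood test). In forebrain excitatory neurons the few Csf1r UMIs went the other way, with 21 and 43 in WT and 184 and 239 in Csf1r+/-. The log2 fold change was 2.53 (SE 0.48), on too few nuclei with a UMI to enter the adjustment. Inhibitory neurons did the same, at 1.31 and 1.93 CPM in WT and at 5.02 and 3.25 CPM in Csf1r+/-. Subcortical glutamatergic, striatal and endothelial nuclei also had more in both Csf1r+/- libraries, on few UMIs. In oligodendrocytes and their precursors the genotypes overlapped. A lower Csf1r level in Csf1r+/- was thus seen in microglia alone, and not at an adjusted p under 0.05. CPM here is the UMI count of a gene scaled to 1000000 UMIs of that class of nuclei in that library.

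Nuclei were sorted into classes by counts of marker transcripts, and each class holds nuclei that are like the cell type it is named for. The largest was forebrain excitatory neurons, with 6388, 5023, 4429 and 5761 nuclei in the 4 libraries in the order given above. Microglia numbered 144 to 185 nuclei per library, endothelial nuclei 68 to 195 and oligodendrocytes 330 to 1319. Astrocytes were scarce, with 8 to 26 nuclei per library, and entered the comparison of classes. They fell under the minimum of 10 nuclei per library set for the comparison of genotypes, where they are given apart from the other classes. Pericytes and smooth muscle (mural nuclei, 6 to 12 per library) were too few for either.

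Mt1 and Mt2, the metallothioneins of most tissues, were highest in endothelial and astrocyte nuclei. In endothelial nuclei Mt1 was at 391 and 308 CPM in the WT libraries and at 467 and 281 CPM in the Csf1r+/- libraries. The values of the 2 genotypes overlapped fully. Against the mean of the other 8 classes, within libraries, endothelial Mt1 was higher by 3.12 on the log2 scale (SE 0.25, adjusted p = 4.8e-16, edgeR quasi-likelihood test with library as a block). In this comparison 21.1% of 16972 genes were called higher in endothelial nuclei at an adjusted p under 0.05. Endothelial Mt2 was at 110 and 55.4 CPM in WT and at 42.5 and 79.4 CPM in Csf1r+/-, on 6 to 38 UMIs per library, and exceeded the other classes by 3.70 (SE 0.40, adjusted p = 1.5e-11).

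Astrocyte Mt1 was at 76.3 and 418 CPM in WT and at 677 and 353 CPM in Csf1r+/-, but on only 2 to 21 UMIs per library. It was higher than in the other classes by 2.36 (SE 0.53, adjusted p = 0.0014), where 2.84% of genes were called higher. Astrocytes and endothelial nuclei could not be separated in Mt1 (astrocyte minus endothelial -0.67, SE 0.45, adjusted p = 0.42) or Mt2 (-0.51, SE 0.67, adjusted p = 0.76). The fit scales the totals differently from CPM, and its signs run against the mean CPM. Those means were 381 in astrocytes and 362 in endothelial nuclei for Mt1, and 123 and 71.8 for Mt2. Microglia followed at 22.0 to 145 CPM for Mt1, below endothelial nuclei by 2.40 (SE 0.35, adjusted p = 9.6e-08). Neighbours further down the order of Mt1, from microglia through oligodendrocytes, their precursors and the neuronal classes, did not differ beyond their spread (adjusted p 0.48 to 0.88). Forebrain excitatory neurons were lowest, with a mean of 15.2 CPM (SD 15.1, n = 4 libraries).

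Mt3 had a flatter profile. It was highest in astrocytes, at 191, 139, 323 and 283 CPM in the 4 libraries on 4 to 10 UMIs each (1.80 above the other classes, SE 0.40, adjusted p = 0.0012). Endothelial nuclei came next at 48.8 to 98.6 CPM (0.71 above the others, SE 0.25, adjusted p = 0.019) and were within the spread of microglia (difference 0.16, SE 0.30, adjusted p = 0.78). In endothelial nuclei there were 5.87, 3.12, 6.0 and 5.75 Mt1 UMIs for each Mt3 UMI in the 4 libraries, against 0.650, 1.0, 0.583 and 0.559 in forebrain excitatory neurons. These ranges did not overlap. In inhibitory neurons the ratio was 0.595 to 1.17 and in oligodendrocytes 0.909 to 1.46, and in WT replicate 1 both stood at 0.909. Mt2 was the rarest of the 3 in UMIs in each class apart from endothelial nuclei, where its 66 UMIs exceeded the 58 of Mt3, and mural nuclei, with 3 UMIs of each.

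**Figure D1:**
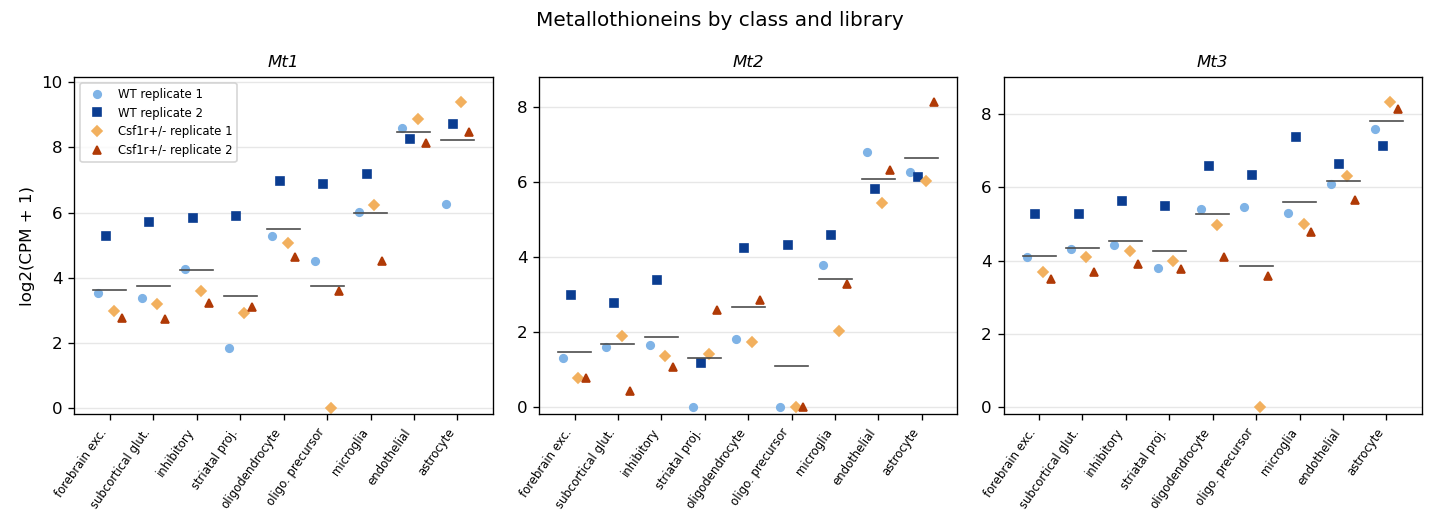
Levels of Mt1, Mt2 and Mt3 in 9 classes of nuclei, as log2(CPM + 1); each point is 1 library and each bar the mean of the 4. WT replicate 2 (dark squares) is the highest library for Mt3 in each of the 8 classes other than astrocytes and for Mt1 in 7 of those 8, while in endothelial nuclei its Mt1 lies among the others.

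The highest class of the zinc sensing and transport genes varied from gene to gene. Mtf1 was highest in oligodendrocytes, at 41.4, 51.1, 50.2 and 63.7 CPM in the 4 libraries, and exceeded the other classes by 1.38 (SE 0.16, adjusted p = 2.6e-10; 23.2% of genes were called higher there). It was higher in oligodendrocytes than in endothelial nuclei, the next class in the order (difference 0.99, SE 0.30, adjusted p = 0.0054). In forebrain excitatory neurons it was at 16.2, 20.5, 20.1 and 17.3 CPM.

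Slc30a1, the exporter of the plasma membrane and a target of Mtf1, was an endothelial transcript. It was at 188, 197, 226 and 263 CPM in endothelial nuclei, on 32 to 65 UMIs per library, against 3.35 to 4.35 CPM in forebrain excitatory neurons and 3.1 to 13.2 CPM in microglia. The endothelial value was 5.95 above the mean of the other classes (SE 0.25, adjusted p = 8.3e-27) and 4.67 above microglia, the next class (SE 0.34, adjusted p = 1.5e-16). That mean includes astrocytes, whose level could not be estimated without a UMI, so the size of the 5.95 depends in part on it. Astrocytes had 0 Slc30a1 UMIs in each library, which at this depth allows a level of up to 69.7 to 212 CPM (3 UMIs per library, counting error only).

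Slc39a10, an importer of the plasma membrane, was also highest in endothelial nuclei, at 839, 826, 1061 and 965 CPM (3.59 above the others, SE 0.10, adjusted p = 1.1e-35). Of the classes fitted, the second was forebrain excitatory neurons with 94.2, 119, 108 and 110 CPM. In the fit they lay 2.47 below endothelial nuclei (SE 0.10, adjusted p = 2.3e-28) and above microglia by 1.02 (SE 0.17, adjusted p = 7.6e-07). The fit scales the totals differently from CPM, where the means were 108 for these neurons, 81.8 for microglia and 923 for endothelial nuclei. Mural nuclei, the other vascular class and not fitted, had Slc39a10 at 391, 167, 0 and 348 CPM on 0 to 9 UMIs, and Slc30a1 at 87.0, 0, 517 and 49.7 CPM on 0 to 4 UMIs. Among the classes fitted, endothelial nuclei were thus the highest class for an importer and an exporter at the plasma membrane, and, with astrocytes, for Mt1 and Mt2.

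Slc30a3, the zinc transporter of synaptic vesicles, was highest in forebrain excitatory neurons, at 24.4, 34.8, 31.8 and 30.2 CPM (2.34 above the others, SE 0.15, adjusted p = 1.7e-19; 37.9% of genes were called higher there). Inhibitory neurons held 11.0 to 15.8 CPM and subcortical glutamatergic neurons 3.24 to 5.88 CPM. A Slc30a3 UMI was found in 17.7% to 26.8% of forebrain excitatory nuclei and in 0.61% to 2.35% of oligodendrocytes, a type that should lack it, at median depths of 6446 to 9685 and 1866 to 2128 UMIs. With every nucleus thinned to 1000 UMIs, leaving out 1 to 6 shallower nuclei per library in the first class and 22 to 71 in the second, the shares were 2.95% to 3.93% and 0.66% to 0.96%. Slc39a12, an importer known from astrocytes, was at 725, 163, 452 and 424 CPM in astrocytes on 6 to 19 UMIs per library (6.75 above the others, SE 0.46, adjusted p = 3.9e-17). Microglia were second at 26.4 to 43.4 CPM on 7 to 14 UMIs per library (3.27 above the others, SE 0.44, adjusted p = 1.2e-08; 17.0% of genes were called higher in microglia). The astrocyte value exceeded the microglial one by 3.09 (SE 0.42, adjusted p = 7.1e-08).

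Slc30a9, a zinc transporter of mitochondria, and Slc39a11, an importer of intracellular membranes, were spread over all classes. Slc30a9 lay between 60.1 and 62.3 CPM in the 4 libraries of forebrain excitatory neurons. Its range was 72.2 to 84.4 CPM among inhibitory neurons and 61.0 to 77.8 CPM among endothelial nuclei. Microglia were highest at 76.3 to 139 CPM (0.49 above the others, SE 0.15, adjusted p = 0.011). Slc39a11 was at 24.8 to 31.5 CPM in forebrain excitatory neurons and at 33.0 to 97.5 CPM in microglia (0.98 above the others, SE 0.26, adjusted p = 0.0023).

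**Figure D2:**
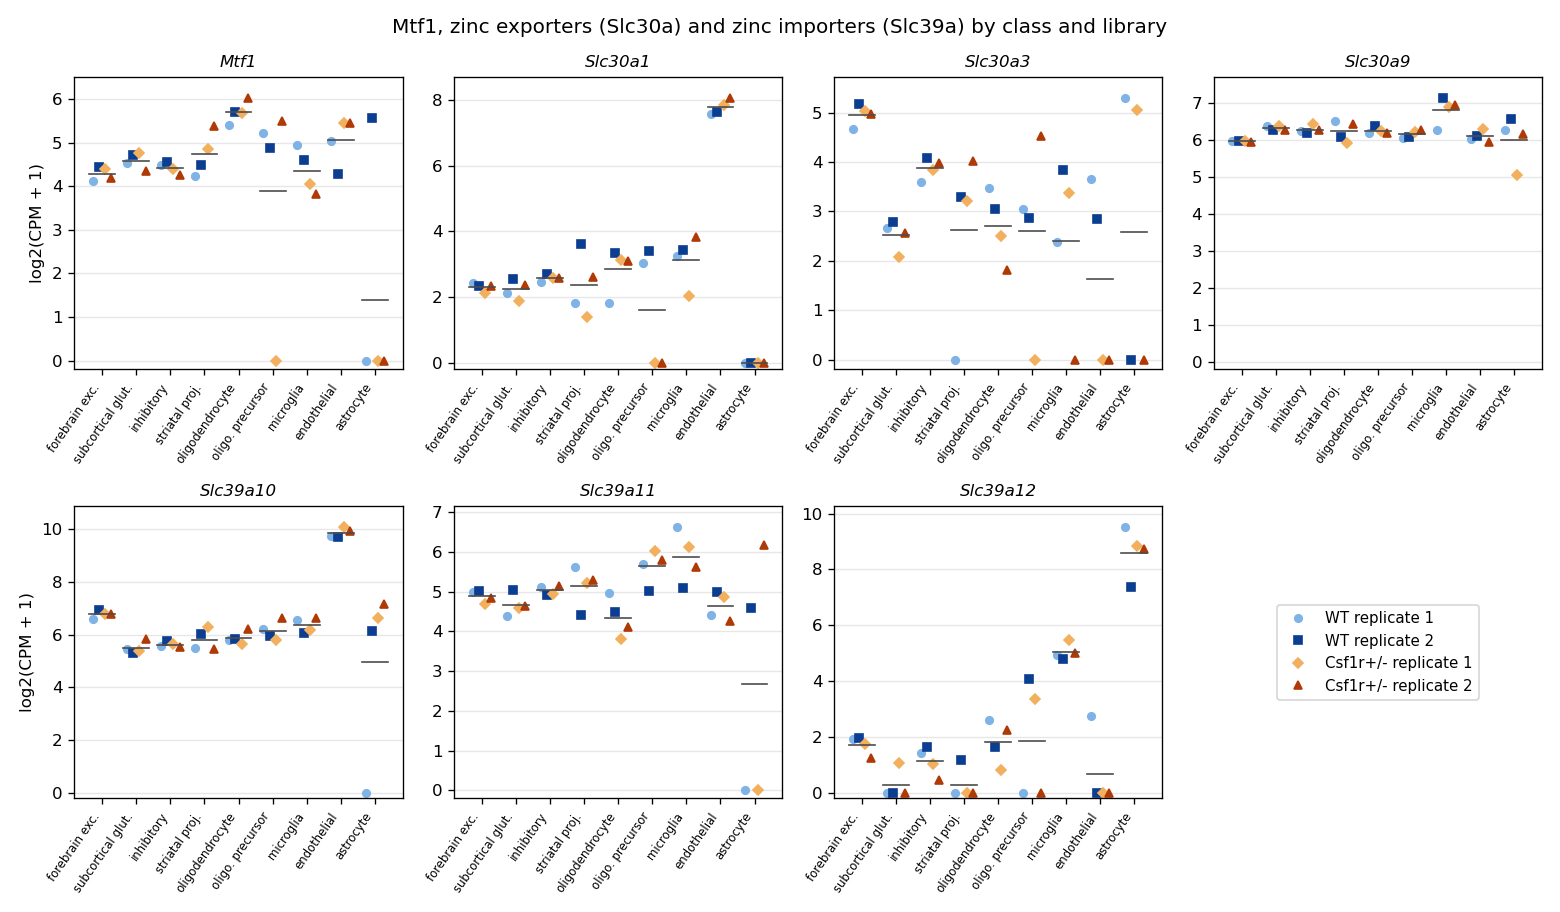
Levels of Mtf1, the 3 exporters (Slc30a) and the 3 importers (Slc39a) in 9 classes, as log2(CPM + 1); each point is 1 library and each bar the mean of the 4. Slc30a1 and Slc39a10 peak in endothelial nuclei, Slc30a3 in forebrain excitatory neurons, Slc39a12 in astrocytes and Mtf1 in oligodendrocytes; astrocyte points at 0 are libraries without a UMI.

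Over the 36 class and library totals, the genes whose log2(CPM + 1) followed Mt1 most closely among 16972 genes were Aldoc, an astrocyte-enriched glycolytic enzyme (Pearson r = 0.93), Cox6c and Cox8a, subunits of cytochrome oxidase (0.93 and 0.91), Dbi, an acyl-CoA binding protein (0.91), and Rps19, a ribosomal protein (0.91). For Mt3 they were Aldoc (0.95), Ptov1 (0.90), Ckb, the brain creatine kinase (0.90), Tubb2b (0.88) and Rnf187 (0.87). Mt1 correlated with Mt3 at 0.90 and with Mt2 at 0.88, but with Mtf1 at -0.02 and with Slc30a1 at 0.40. For Slc30a3 the closest genes were Boc (0.75), Ephx4 (0.75), Smoc2 (0.73), Rhbdd3 (0.72) and Ankrd45 (0.71). These correlations describe totals that share mice and depth, and carry no test.

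The study asked whether loss of 1 Csf1r copy changes gene expression in each cell type. All 22 metallothionein values that could be fitted in 8 classes were lower in Csf1r+/-, with a median log2 fold change of -1.65. Of all genes tested, 3931 of 7796 were lower in forebrain excitatory neurons and 1639 of 3426 in microglia. Astrocytes, not among the 8, went the other way and are described below. Of the 22 values, 7 passed the study's threshold of an unadjusted p under 0.01 in the quasi-likelihood test. There, 1.58% of all genes tested in the 8 classes were called lower. With the likelihood-ratio test, which the study used, 14 passed, and 1.97% of all genes were called lower. Each of the 7 reached a UMI in 10% of nuclei in WT only, so their number adds no support. The 22 values also read 3 genes repeatedly in the same mice. Only 1 of the 22 passed without WT replicate 2, where the share over all genes was 1.26%. With all 4 libraries, none had an adjusted p under 0.05 (the smallest was 0.18, edgeR quasi-likelihood test). The 47 values of the transporters and Mtf1 had a median of -0.002, 24 were lower, and none passed p under 0.01 or p under 0.05 (1 passed p under 0.01 in the likelihood-ratio test, the study's own). The 19 other zinc genes (Mt4 and the remaining Slc30a and Slc39a genes) gave 97 values with a median of -0.0005, of which 49 were lower, 6 had a p under 0.05 and 0 a p under 0.01 (2 with the likelihood-ratio test, Slc39a8 and Slc39a3 in microglia).

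In forebrain excitatory neurons Mt1 was at 10.5 and 37.6 CPM in WT (mean 24.1, SD 19.2, n = 2) and at 6.92 and 5.74 CPM in Csf1r+/- (mean 6.33, SD 0.84, n = 2). Mt3 was at 16.1 and 37.5 CPM in WT and at 11.9 and 10.3 CPM in Csf1r+/-. Mt2 was at 1.47 and 6.97 CPM in WT and at 0.71 CPM in both Csf1r+/- libraries. For each of the 3 genes WT replicate 1 lay closer to the Csf1r+/- libraries than to WT replicate 2. The log2 fold changes were -1.87 for Mt1 (SE 0.57, adjusted p = 0.9997), -2.49 for Mt2 (SE 0.76) and -1.23 for Mt3 (SE 0.38, adjusted p = 0.9997), and none passed the threshold in the quasi-likelihood test, by which 0.231% of 7796 genes were called lower. Without WT replicate 2 they were -0.73 (SE 0.20), -1.07 (SE 0.30) and -0.55 (SE 0.17), and none passed.

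Inhibitory neurons gave the one call that held without WT replicate 2. Mt1 was at 18.4 and 56.4 CPM in WT and at 11.1 and 8.30 CPM in Csf1r+/- (log2 fold change -1.92, SE 0.50, adjusted p = 0.9998), and the unadjusted p was under 0.01. Without WT replicate 2 the change was smaller, -0.93 (SE 0.24, adjusted p = 0.42). In that fit the lone WT library is assumed to vary like the other group. The share of genes called lower in this class, 0.138%, belongs to the fit with WT replicate 2 included. WT Mt3 was at 20.3 and 48.3 CPM, the Csf1r+/- values were 18.0 and 14.0 CPM, and the difference did not pass (-1.08, SE 0.38, adjusted p = 0.9998).

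In subcortical glutamatergic neurons Mt1 was at 9.46 and 51.3 CPM in WT and at 8.11 and 5.61 CPM in Csf1r+/- (-2.05, SE 0.71, adjusted p = 0.9999), which did not pass, with 0.144% of genes called lower. The difference was -0.55 (SE 0.41, adjusted p = 0.99) without WT replicate 2. In striatal projection neurons Mt1 passed the threshold (-2.34, SE 0.71, adjusted p = 0.9997, against 0.505% of genes called lower) on 1 and 46 UMIs in WT and 4 and 3 UMIs in Csf1r+/-. It turned to 1.30 (SE 0.94, adjusted p = 0.97) without WT replicate 2.

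Oligodendrocytes, the myelin-forming glia, had Mt1 at 37.7 and 123 CPM in WT and at 32.4 and 23.7 CPM in Csf1r+/- (-1.60, SE 0.44, adjusted p = 0.23). Mt3 was at 41.4 and 94.1 CPM in WT and at 30.1 and 16.2 CPM in Csf1r+/- (-1.57, SE 0.39, adjusted p = 0.22). Both passed the threshold in a class where 3.21% of genes were called lower. Neither passed without WT replicate 2, where the changes were -0.39 (SE 0.41, adjusted p = 0.89) and -0.76 (SE 0.42, adjusted p = 0.55). Mt2 was at 2.51 and 17.8 CPM in WT and at 2.32 and 6.25 CPM in Csf1r+/-, so that the groups overlapped. It did not pass (-1.71, SE 0.87) and turned to 0.58 (SE 1.41) without WT replicate 2. In their precursors, counts were few. There were 3 and 37 Mt1 UMIs in WT and 0 and 1 in Csf1r+/-, and 6 and 25 Mt3 UMIs against 0 and 1, and both differences passed (adjusted p = 0.93). Here 0.636% of genes were called lower, and neither passed without WT replicate 2.

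In microglia, the cells that carry the receptor, Mt3 was at 38.1 and 165 CPM in WT and at 31.0 and 26.4 CPM in Csf1r+/-. This passed the threshold (-1.92, SE 0.61, adjusted p = 0.18), in a class where 5.11% of genes were called lower. It rested on 9 and 50 UMIs in WT and 10 and 6 in Csf1r+/-, and was -0.43 (SE 0.67, adjusted p = 0.90) without WT replicate 2. Mt1 was at 63.6 and 145 CPM in WT and at 74.5 and 22.0 CPM in Csf1r+/-, so that the groups overlapped (-1.10, SE 0.50, adjusted p = 0.34, and -0.33, SE 0.63, without WT replicate 2). Mt2 had 3 and 7 UMIs in WT and 1 and 2 in Csf1r+/-.

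Endothelial nuclei, with the most Mt1 of the classes tested for genotype, had the genotypes close together. The log2 fold change was -0.03 for Mt1 (SE 0.27, adjusted p = 0.97), -0.62 for Mt2 (SE 0.43, adjusted p = 0.50) and -0.41 for Mt3 (SE 0.43, adjusted p = 0.69), in the class with the highest share of genes called lower, 8.38%. The Mt1 change was more negative in forebrain excitatory neurons than in endothelial nuclei, with a signed contrast (endothelial minus forebrain excitatory) of 1.44 on the log2 scale (SE 0.43, adjusted p = 0.092 in an edgeR interaction test). This was the only one of 59 such differences over the members with an unadjusted p under 0.05, and none had an adjusted p under 0.05. Slc30a1 and Slc39a10, in the same nuclei, gave log2 fold changes of 0.26 (SE 0.29, adjusted p = 0.72) and 0.18 (SE 0.23, adjusted p = 0.75).

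Astrocytes ran in the opposite direction on few UMIs. Their Mt3 was at 191 and 139 CPM in WT and at 323 and 283 CPM in Csf1r+/-. In a fit added after the data were seen, the log2 fold changes were 1.04 for Mt1 (SE 0.67, adjusted p = 0.95), 0.93 for Mt2 (SE 0.99, adjusted p = 0.95) and 0.93 for Mt3 (SE 0.72, adjusted p = 0.95). None passed the threshold in astrocytes, where 0.661% of 2419 genes were called higher. Without WT replicate 2 they were 2.74 (SE 1.01), 0.80 (SE 1.24) and 0.66 (SE 0.91). Mt2 turned to -0.15 (SE 1.12) without Csf1r+/- replicate 2, which held 4 of the 6 Mt2 UMIs of its genotype. Mt1 was 0.38 (SE 0.69) without WT replicate 1 and 0.39 (SE 0.93) without Csf1r+/- replicate 1.

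**Figure D3:**
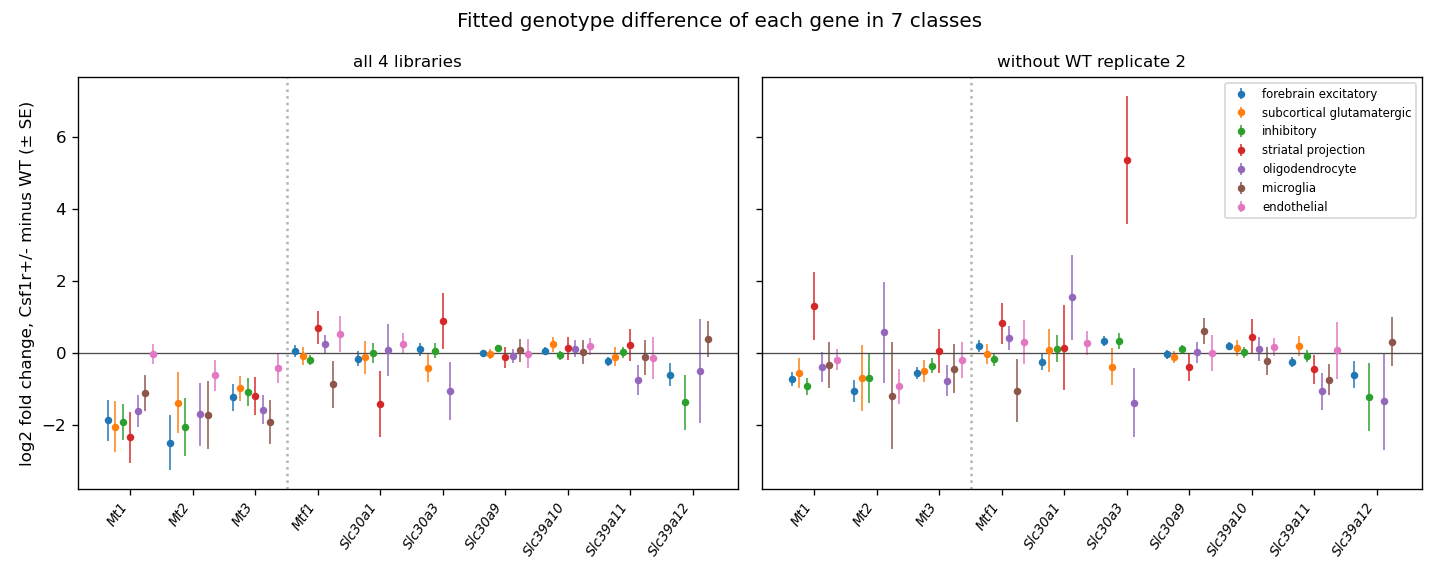
Fitted log2 fold change (Csf1r+/- minus WT, error bars SE) of each gene in 7 classes (oligodendrocyte precursors, with few UMIs, are not drawn), with all 4 libraries (left) and without WT replicate 2 (right). The metallothioneins sit below 0 with all 4 libraries, near -1 to -2.5 outside endothelial nuclei, and without WT replicate 2 they move towards 0 or above it (striatal Mt1 and Mt3, oligodendrocyte Mt2), apart from endothelial Mt1 and Mt2, which move further below it.

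The 2 WT mice differed from each other in the metallothioneins. In forebrain excitatory neurons WT replicate 2 held 3.59 times the Mt1 CPM and 2.32 times the Mt3 CPM of WT replicate 1, against a median of 1.12 over 15712 genes with at least 100 UMIs. Only 0.586% of those genes had a ratio as high as that of Mt1, and 3.1% as high as that of Mt3. Across the 8 classes the median ratio was 3.43 for Mt1 and 2.30 for Mt3. It was 1.26 for both Slc30a1 and Slc30a3, 1.06 for Slc39a12, 1.10 for Mtf1, 1.01 for Slc30a9, 1.0 for Slc39a10 and 0.788 for Slc39a11. WT replicate 2 was the highest library in 7 of 8 classes for Mt1, 6 of 8 for Mt2 and 8 of 8 for Mt3, against 2 to 5 of 8 for each transporter and Mtf1. Over all genes with at least 100 UMIs, the share highest in that library was 20.7% to 48.1% by class. The endothelial Mt1 ratio was 0.789.

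The filter on detection also leaned on WT. Of the 8 classes, Mt1 reached a UMI in 10% of nuclei in WT only in 7 and in both genotypes in 1, the endothelial class. Mt3 did so in WT only in 3 classes and in both genotypes in 5, and Mt2 passed in endothelial nuclei alone. A gene admitted through the group in which it is high has to differ, so the counts of calls among members that passed add no support. Each metallothionein call of the main test was of this kind, reaching 10% of nuclei in WT only.

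Other readouts moved with the metallothioneins in some classes. In forebrain excitatory neurons, mitochondrially encoded transcripts were 0.127% and 0.473% of UMIs in WT and 0.207% and 0.131% in Csf1r+/-. In oligodendrocytes they were 0.445% and 1.26% against 0.673% and 0.369%. A list of 9 cytoplasmic astrocyte transcripts (Aldoc, Apoe, Ndrg2, Cst3, Clu, Cpe, Slc1a2, Glul and Sparcl1), several of which neurons or microglia also express, summed to 940 and 1313 CPM in WT and to 1000 and 858 CPM in Csf1r+/- forebrain excitatory neurons. Each of the 9 was highest in WT replicate 2. Of all genes with at least 100 UMIs in these neurons, 48.1% were highest in that library. Of 13 astrocyte markers, 12 were highest there, none was without a UMI, and their sum ranged from 151 to 207 CPM over the libraries, with WT replicate 2 at 165 CPM. In endothelial nuclei, 4 of the 13 and 5 of the 9 were highest in WT replicate 2, and the mitochondrial share was 2.50% to 3.31% over the 4 libraries. In microglia the 9-gene sum was lowest in WT replicate 2, at 6551 CPM against 6926 to 9816 CPM, while Mt3 was highest there. Gene by gene, however, 8 of the 9 and 12 of the 13 markers were highest in WT replicate 2 in microglia. The share over all genes with at least 100 UMIs was 23.6% in this class. The sum of the 13 markers was also highest in that library, at 462 CPM in a range from 224 CPM.

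In nuclei without a single UMI of the 13 astrocyte markers, the Mt1 difference was -2.01 in forebrain excitatory neurons (SE 0.54). It was -2.00 in inhibitory neurons (SE 0.52) and -1.60 in oligodendrocytes (SE 0.40, adjusted p = 0.12). These last 2 passed the threshold, where 1.47% of all genes tested in the classes fitted this way were called lower. In subcortical glutamatergic neurons the difference was -3.15 for Mt1 (SE 0.91) but -0.33 for Mt3 (SE 0.52). Astrocyte RNA without a marker UMI in the same droplet, and the mitochondrial share, were not tested as sources of the difference. In sums over nuclei, fewer transcripts per nucleus and fewer nuclei with the transcript cannot be told apart by a fold change. With nuclei thinned to 1000 UMIs, 1.63% and 4.70% of WT forebrain excitatory nuclei had an Mt1 UMI, against 0.88% and 0.73% in Csf1r+/-; before thinning the shares were 8.70% and 22.6% against 7.09% and 4.72%. At 1 fixed depth, Mt1 was thus seen in a larger share of nuclei in WT replicate 2 than in each of the other 3 libraries.

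**Figure D4:**
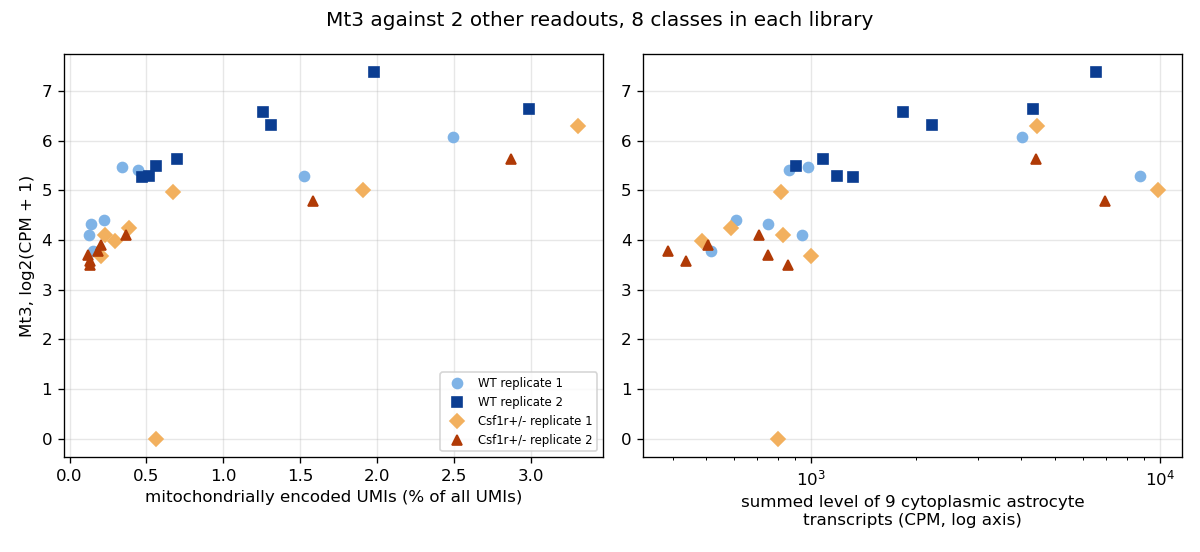
Mt3, as log2(CPM + 1), against the share of mitochondrially encoded UMIs (left) and against the summed CPM of 9 cytoplasmic astrocyte transcripts on a log axis (right), for 8 classes in each of the 4 libraries. WT replicate 2 (dark squares) tends to lie up and to the right of the same class in the other libraries in the left panel; the point at 0 is the precursor class of Csf1r+/- replicate 1, with 18 nuclei and no Mt3 UMI.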

How the data were processed

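Nuclear RNA of 4 mouse brains was captured with the 10x Genomics droplet platform. The authors deposited 1 matrix per library of UMI counts per gene and barcode, made with Cell Ranger on mm10 per the labels and the study's methods. Whether intronic reads were counted is not given in the sources used here. Barcodes entered the analysis at 500 to 50000 UMIs, with over 200 detected genes and a mitochondrial share below 5%. The members, marker lists and zinc gene lists were chosen with earlier results of these data known.

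A nucleus joined a glial or vascular class with at least 3 of its markers, at least 2 marker UMIs per 1000, at least 2 times the marker UMIs of any other such class, and under 3 UMIs per 1000 of Rbfox3, Snap25, Syt1 and Syn1. Neuronal nuclei had at least 3 pan-neuronal markers, at least 3 UMIs per 1000 of those 4 genes, and no glial or vascular list with both 3 markers and 0.5 UMIs per 1000. Each was assigned by at least 3 markers of a neuronal class and 2 times the UMIs of the next. Striatal neurons were inhibitory nuclei with 4 striatal markers and 2 such UMIs per 1000. These numbers were set after the counts were seen. Nuclei that met no rule, with mixed or too few markers, were left unassigned. They made up 40.0% of nuclei in WT replicate 1 and 41.7% in WT replicate 2. In Csf1r+/- replicate 1 and replicate 2 the shares were 30.4% and 30.0%. No doublet caller was run.

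Raw counts were summed per class and library. Genotypes were compared with edgeR 4.0.16 (quasi-likelihood test, TMM, R 4.3.3) in classes with at least 10 nuclei in each library, and in astrocytes (at least 8) in a fit added after seeing the data. The study's threshold was kept: an unadjusted p under 0.01. Adjusted p-values (Benjamini-Hochberg) cover genes with a UMI in 10% of nuclei of either genotype, and other members were fitted from 10 counts upwards. Unless another test is named, every p in the report comes from this tool. Classes were compared in 1 fit with library as a block, over genes with at least 100 counts and classes with at least 8 nuclei per library. This fit used TMM factors over all class and library totals, so its log2 differences can depart from ratios of CPM. All 10 members were named, with other zinc genes past the threshold, and the 5 genes most correlated with Mt1, Mt3 and Slc30a3. The edgeR likelihood-ratio test, DESeq2 1.42.0, other size factors, filters, class rules, a replicate block and leaving out each library were alternatives. On simulated data, log2 changes of 1 and 1.5 were recovered at p under 0.01 in 62.5% and 98.5% of 200 genes in forebrain excitatory neurons (7796 genes) and in 47.5% and 84% in microglia (3426 genes). The simulated libraries varied around a common mean with the same spread for every gene, and none was set apart as WT replicate 2 was. These shares therefore do not give the power for the metallothioneins. P-values of the genotype comparison measure the spread between 2 mice a genotype. Those between classes measure how class differences vary over the libraries, with both genotypes together.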

Additional observations from a re-analysis of the deposited data

Results flagged for a closer look

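The Mt1 change is listed here because its contrast between 2 classes passed the unadjusted threshold, the only one of 59 such contrasts over the members to do so, although none had an adjusted p under 0.05. The change was -0.03 in endothelial nuclei and -1.87 in forebrain excitatory neurons on the log2 scale. In 1 model over both classes, with library as a block and a scaling of its own, the signed contrast, endothelial minus forebrain excitatory, was 1.44 (SE 0.43, edgeR interaction test, adjusted p = 0.092). The endothelial libraries held 50 to 135 UMIs of Mt1 in WT and 46 to 66 in Csf1r+/-. WT replicate 2 was the highest library in forebrain excitatory neurons and the third of 4 in endothelial nuclei.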

How the results depend on the processing

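The lower metallothionein values of Csf1r+/- were recomputed under 14 alternatives, which gave 301 values for the 22 results. The direction was kept in 292 and reversed in 9. The count past p under 0.01, 7 of 22, was 14 with the edgeR likelihood-ratio test, 13 without the detection filter and 3 of 20 with 1 more marker per nucleus. Of all genes tested in the 8 classes, 1.97%, 1.12% and 1.68% were called lower there, against 1.58% in the main test. The count ran from 1 without WT replicate 2 to 17 without WT replicate 1 (1.26% and 2.93% of all genes), and was 4 when either Csf1r+/- library was left out (1.12% and 1.5%). With astrocytes added after seeing the data, it was 7 of 25. A lone library of a genotype is assumed there to vary like the other group. The count for the transporters and Mtf1 went from 0 to 1 with the likelihood-ratio test (Slc39a12 in inhibitory neurons, -1.37).

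In forebrain excitatory neurons Mt1 passed with the likelihood-ratio test (-1.87, adjusted p = 0.56), without the detection filter (-1.82, adjusted p = 0.9998) and with DESeq2 (-1.87, adjusted p = 0.16). Mt3 did so as well, at -1.23, -1.18 and -1.22. Leaving out 1 library gave -2.50 to -0.73 for Mt1 and -1.68 to -0.55 for Mt3. Microglial Mt3 no longer passed with RLE size factors (-1.92, adjusted p = 0.20) or DESeq2 (-1.90, adjusted p = 0.48), and ranged from -2.56 to -0.43 without 1 library. Microglial Mt1 ranged from -2.32 to -0.33. Mt1 in endothelial nuclei turned to 0.065 with library totals, 0.0082 without the detection filter and 0.14 with at least 1000 UMIs per nucleus, and ran from -0.42 to 0.29 without 1 library. Leaving out 1 library gave -3.01 to 1.30 for Mt1 and -1.64 to 0.063 for Mt3 in striatal neurons, and for Mt2 -2.38 to 0.58 in oligodendrocytes and -1.18 to 0.029 in endothelial nuclei. The cause of these changes was not tested. The highest class of each member was the same with 1 more marker and with at least 1000 UMIs.

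The labels do not say whether equal replicate numbers mark paired mice. The correlation of deviations between libraries of the same number was -0.097 to 0.081 over the 8 classes. This gave no sign of pairing, but 2 libraries a genotype cannot exclude it. With the replicate block, 4 metallothionein values passed (1.58% of all genes were called lower), and microglial Mt1 was among them (-1.07, adjusted p = 0.064), while microglial Mt3 reached an adjusted p of 0.0038 (0.049 with the likelihood-ratio test). The main test gave microglial Mt3 an adjusted p of 0.18. The block pairs the libraries by numbers that are not known to pair the mice, and it leaves fewer degrees of freedom than the main test. Nuclei without an astrocyte marker UMI, and no limit on neuronal transcripts in glia (chosen after seeing the data), were also tried.

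With 2 mice a genotype and 1 WT library far from the other, the spread of WT sets what can be called. Astrocytes, with 8 to 26 nuclei per library, gave genotype differences with wide errors.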
